A study of Mus musculus with 7 samples.

Results

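Cells lacking both p53 and Dnmt1 were compared after 48 h and after 24 h of TSA, to separate changes that had passed by 48 h from changes that lasted or went on. The comparison rested on 2 of the 7 arrays of the series, the p53-/- Dnmt1-/- arrays labelled TSA 24 and TSA 48, with 1 array per group. The untreated p53-/- Dnmt1-/- array gave the level before treatment. A further array of the same genotype, 2 weeks after TSA was removed, and the 3 p53-/- arrays (untreated, 24 h and 48 h of TSA, with no Dnmt1 deletion) are given beside it where they bear on a gene. All 7 arrays came from mouse embryonic fibroblasts without p53, so every control carried the p53 deletion too. The sources used here give neither the dose of TSA nor whether the arrays came from separate cultures, and they do not say whether a genotype was 1 clone or a pool of embryos.

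TSA (trichostatin A) inhibits the zinc-dependent histone deacetylases. Histone tails then keep their acetyl groups, chromatin opens at many genes, and cells commonly slow or stop dividing. Cdkn1a, which encodes the cyclin-dependent kinase inhibitor p21, is the textbook gene induced by such inhibitors, and it can rise without p53. Dnmt1 copies DNA methylation to the new strand after replication, and its loss leaves methylated promoters open to reactivation. Genes of DNA replication and mitosis are transcribed mainly in dividing cells, so their RNA follows how much of a culture is cycling. MuvB complexes act on the late genes of that programme through the sequence TTTGAA (the cell cycle homology region), usually beside NF-Y sites of the form CCAAT, and E2F factors act on the early, replication genes.

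The 24 h array stood apart in its ribosomal RNA controls, and the comparison cannot be made without that array. Its 3 probe sets for 18S ribosomal RNA read 2549.1, 2039.0 and 358.2, against 688.1, 223.7 and 123.3 on the untreated and 1292.1, 601.5 and 179.5 on the 48 h array of the genotype. The 3' over 5' ratios of Actb and Gapdh, a sign of RNA quality, were 1.11 and 0.86 at 24 h, within the 1.06 to 1.23 and 0.83 to 0.91 of all 7 arrays. The part of the 24 h array's ribosomal RNA signal in the results was not tested. Actb itself, outside the control probe sets, read 5199.5, 5968.6 and 5175.5 on the untreated, 24 h and 48 h arrays. Dnmt1 read 206.5, 74.0 and 109.5 on these arrays and 695.6, 384.4 and 308.2 on the p53-null arrays, so signal remained in cells labelled as lacking the gene, and no source used here places the probe set relative to the deletion.

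At 48 h, 295 of 9390 features (3.14%) were at least 2-fold higher and 235 (2.5%) at least 2-fold lower than at 24 h. A feature is a named gene, taken by its brightest probe set, or a probe set without a name, and folds are on the scale of log2(signal + 11.4), which understates the change of dim genes. With 1 array per group there was no replicate check and no p-value, and 2-fold is a rule of size. The median difference over all features was 0.03 on the log2 scale. At the threshold, Ppil4 lay just inside, from 14.8 at 24 h to 41.0 at 48 h, and Twist1 just outside at 0.9987. On the lower side Efna3 lay just inside, from 53.2 to 20.9, and Ndrg2 just outside at -0.9981. When the difference was centred on a running median over intensity, 237 features were higher and 284 lower, so the share of calls that were higher went from 55.7% to 45.5%.

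Most of these features had moved back toward the untreated level. Of the 295 that were higher at 48 h, 179 had been at least 2-fold under the untreated level at 24 h and were within 2-fold of it at 48 h (a transient fall, 1.91% of all features). Of the 235 that were lower, 139 had been at least 2-fold over it at 24 h and were within 2-fold of it at 48 h (a transient rise, 1.48%). A further 20 features (0.213%) came down by 2-fold but stayed at least 2-fold above untreated, and 2 (0.0213%) came up but stayed below. Growth by 2-fold in both steps was rare. It was seen as a rise in 2 features (0.0213%) and as a fall in 1 (0.0106%). For reference, 565 features (6.02%) were at least 2-fold above and 479 (5.1%) below untreated at 24 h, and 276 (2.94%) above and 94 (1%) below at 48 h. The 24 h array entered both steps, with opposite signs, so an error on that array alone also gives a transient course.

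**Figure D1:**
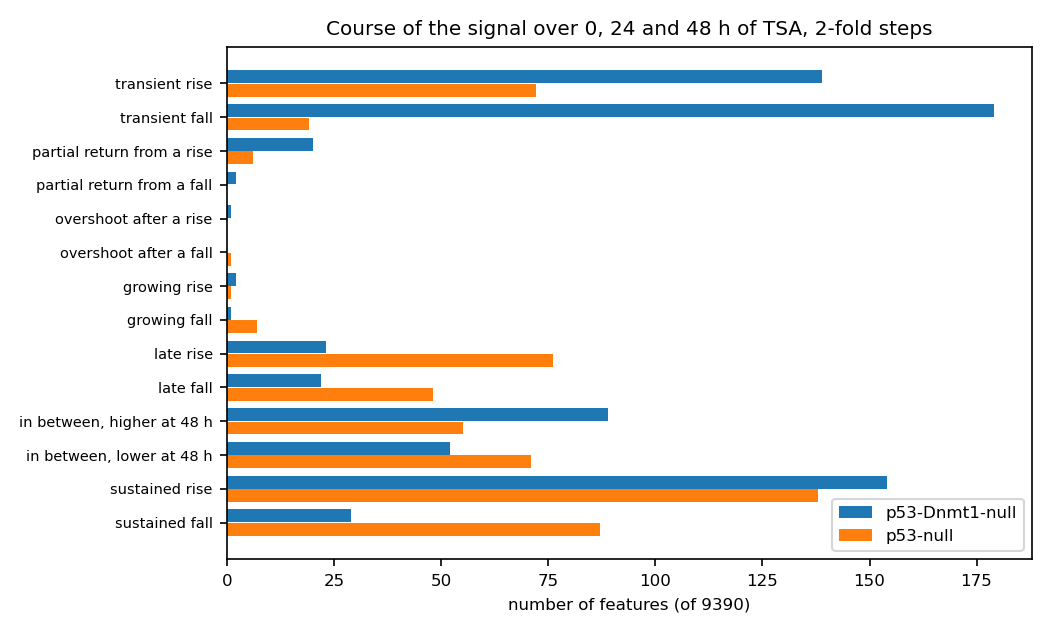
Number of features, of 9390, in each course class over 0, 24 and 48 h of TSA, in p53-Dnmt1-null cells (blue) and p53-null cells (orange). The longest bar is the transient fall of p53-Dnmt1-null cells, 179 features against 19 in p53-null cells; late rises numbered 23 against 76.

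The p53-null cells, on arrays of their own, had fewer transients. They had 72 transient rises and 19 transient falls, against 139 and 179 without Dnmt1. They also had more late changes, with 76 late rises and 48 late falls against 23 (0.245% of all features) and 22 (0.234%). Late means under 2-fold from untreated at 24 h, and at 48 h at least 2-fold from both untreated and 24 h, in the same direction. Falls that were 2-fold below untreated at both times, and less than 2-fold apart between them, numbered 87 against 29. Rises of that kind numbered 138 against 154, and falls of 2-fold in both steps 7 against 1. The difference between the genotypes was not tested.

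Genes of mitosis fell at 24 h and had come back toward their untreated level at 48 h. Of 41 measured genes in the mitosis list, 24 were at least 2-fold higher at 48 h than at 24 h (3.14% of all features) and 0 were lower. Of the 41, 40 were above 0, where 52.6% of all features were. Their median difference was 1.12 on the log2 scale, after a median of -1.52 from untreated to 24 h, a step in which 36 of the 41 fell by 2-fold (5.1% of all features). At 48 h the median was -0.44 against untreated, where that of all features was -0.01. Of the 41, 39 were below untreated, and only Kif22 was still 2-fold lower. In a culture measured in bulk, fewer cycling cells and less of these RNAs per cell cannot be told apart.

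Kif11, the kinesin that pushes spindle poles apart, read 148.5 untreated, 23.6 at 24 h and 115.1 at 48 h. Mki67, the proliferation antigen Ki-67, read 309.0, 54.4 and 225.0. Hmmr, a spindle-associated hyaluronan receptor, read 346.8, 44.5 and 198.3. In each of these genes the 24 h array was the low one and the 48 h array lay nearer to untreated than to 24 h on the log2 scale, with rises from 24 h to 48 h of 3.61-fold, 3.59-fold and 3.75-fold. Ncapg, a condensin subunit, read 89.2, 0.7 and 40.2, so its 24 h signal was near the bottom of the scale.

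Sgo1, which guards cohesin at the centromere, rose the most among transient falls with a signal of at least 100, from 17.3 at 24 h to 124.7 at 48 h, with 145.8 untreated. Spc25, a kinetochore subunit, read 155.9, 47.2 and 201.0 and ended above its untreated level. Ccna2, cyclin A2, read 1122.6, 288.4 and 695.4, a return that was within 2-fold of untreated but not complete. Foxm1, a transcription factor for late cell cycle genes, read 303.1, 102.2 and 251.0. Hmgb2, a chromatin protein abundant in dividing cells, read 813.6, 151.4 and 595.4. All of these were lowest on the 24 h array.

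TTTGAA and CCAAT were looked for on both strands in the 250 bases before the first listed start of each gene (RefSeq, GRCm38.p6). Of the 24 mitosis genes with a transient fall, 21 had a promoter in the table: TTTGAA was in 11 of them (52.4%), CCAAT in 17 (81%), and both were in 10 (47.6%). Among all 6758 measured genes with a promoter, 10.3% held TTTGAA, 36.4% CCAAT and 3.74% both; among all 27025 promoters of the table the shares were 16.3%, 34.5% and 5.73%. Of the 13 mitosis genes with a promoter and another course, 2 held TTTGAA and 10 held CCAAT. Over the whole transient fall class, 28 of 133 promoters held TTTGAA (21.1%), and in the transient rise class 5 of 98 did (5.1%). The letters can overlap by 1 base where CCAAT runs into TTTGAA, and a match is a description of the sequence, not a binding site.

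The 4 mitosis genes that hold both motifs and differed most between 48 h and 24 h are shown to let the spacing of the motifs be read, with TTTGAA and CCAAT in capitals on either strand (TTCAAA and ATTGG on the other strand), 5′ to 3′ toward the start of the gene. Ncapg lies at chr5:45669675-45669924 on the plus strand, Kif11 at chr19:37376132-37376381 on the plus strand, Mki67 at chr7:135716380-135716629 on the minus strand and Top2a at chr11:99024190-99024439 on the minus strand.
Ncapg: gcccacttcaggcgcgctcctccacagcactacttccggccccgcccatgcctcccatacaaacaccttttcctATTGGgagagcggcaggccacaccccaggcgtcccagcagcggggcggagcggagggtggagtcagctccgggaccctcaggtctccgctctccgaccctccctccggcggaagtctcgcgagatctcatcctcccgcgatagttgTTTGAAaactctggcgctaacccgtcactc
Kif11: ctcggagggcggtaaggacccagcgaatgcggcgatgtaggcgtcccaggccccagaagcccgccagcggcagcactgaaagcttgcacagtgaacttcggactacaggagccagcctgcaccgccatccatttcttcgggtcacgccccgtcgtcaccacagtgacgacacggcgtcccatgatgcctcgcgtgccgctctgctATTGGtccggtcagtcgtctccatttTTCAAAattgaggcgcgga
Mki67: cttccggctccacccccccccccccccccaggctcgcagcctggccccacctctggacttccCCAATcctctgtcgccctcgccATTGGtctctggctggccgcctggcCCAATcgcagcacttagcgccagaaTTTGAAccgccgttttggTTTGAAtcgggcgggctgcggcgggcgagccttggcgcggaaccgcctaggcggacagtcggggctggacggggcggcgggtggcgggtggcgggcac
Top2a: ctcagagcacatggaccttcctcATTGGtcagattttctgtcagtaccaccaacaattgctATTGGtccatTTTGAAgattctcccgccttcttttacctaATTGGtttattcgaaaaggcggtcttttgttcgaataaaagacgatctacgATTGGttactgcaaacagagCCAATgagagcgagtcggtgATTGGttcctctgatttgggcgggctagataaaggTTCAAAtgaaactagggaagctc
The Ncapg and Kif11 promoters hold 1 copy of each motif, that of Mki67 holds 2 of TTTGAA and 3 of CCAAT, and that of Top2a 2 and 6. Top2a, the DNA topoisomerase of dividing cells, read 910.8 untreated, 174.5 at 24 h and 571.5 at 48 h, low at 24 h like the other 3.

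DNA replication genes took the same course with a smaller return. Of 35 measured, 10 were at least 2-fold higher at 48 h (3.14% of all features), 0 were lower by 2-fold and 34 were above 0. The median was 0.72, after -1.27 from untreated to 24 h. At 48 h the median was -0.54 against untreated, with 33 of the 35 below it, so the return was incomplete in most. Fen1, the flap endonuclease of Okazaki fragments, read 1398.0 untreated, 354.6 at 24 h and 969.7 at 48 h. Cdc45, a part of the replicative helicase, read 310.2, 71.2 and 205.7. Rrm1, the large subunit of ribonucleotide reductase, read 1047.5, 408.6 and 1058.6, so that its 48 h signal was at the untreated level. Pole, the catalytic subunit of DNA polymerase epsilon, read 348.7, 73.0 and 186.6.

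The 2 features with a partial return from a fall were both genes of S phase. Lig1, the ligase that seals Okazaki fragments, read 631.2, 137.8 and 294.4, and Nasp, a chaperone that supplies histones H1 and H3-H4, read 571.0, 101.6 and 274.0. Both were still just over 2-fold below untreated at 48 h.

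An E2F-type sequence (TTTCCCGC, TTTGGCGC or TTTCGCGC, both strands, which can overlap each other) was in 7 of the 31 DNA replication promoters matched (22.6%), against 3.43% of measured genes and 1.59% of all promoters. CCAAT was in 19 of these 31 promoters (61.3%), against 36.4% of measured genes, so it was not particular to the mitosis genes. The E2F-type sequence was in 1 of the 34 matched mitosis promoters (2.94%) and in 14 of 133 in the whole transient fall class (10.5%). The 2 replication genes with a transient fall that hold it both encode subunits of the MCM helicase, and their promoters are shown with these letters in capitals. Mcm5 lies at chr8:75109259-75109508 on the plus strand and Mcm6 at chr1:128359706-128359955 on the minus strand.
Mcm5: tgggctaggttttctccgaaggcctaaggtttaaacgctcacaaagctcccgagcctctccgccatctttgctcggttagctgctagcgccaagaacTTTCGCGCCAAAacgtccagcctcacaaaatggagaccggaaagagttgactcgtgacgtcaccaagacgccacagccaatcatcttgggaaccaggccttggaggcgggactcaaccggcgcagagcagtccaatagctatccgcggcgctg
Mcm6: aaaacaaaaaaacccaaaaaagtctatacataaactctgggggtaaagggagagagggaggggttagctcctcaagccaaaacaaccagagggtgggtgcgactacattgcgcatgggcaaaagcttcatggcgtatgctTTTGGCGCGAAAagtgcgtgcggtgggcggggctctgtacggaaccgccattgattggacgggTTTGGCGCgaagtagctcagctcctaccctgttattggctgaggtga
Mcm5 read 1185.0 untreated, 303.5 at 24 h and 709.2 at 48 h, and Mcm6 read 896.2, 295.8 and 672.1. Both were low at 24 h and within 2-fold of untreated at 48 h.

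**Figure D2:**
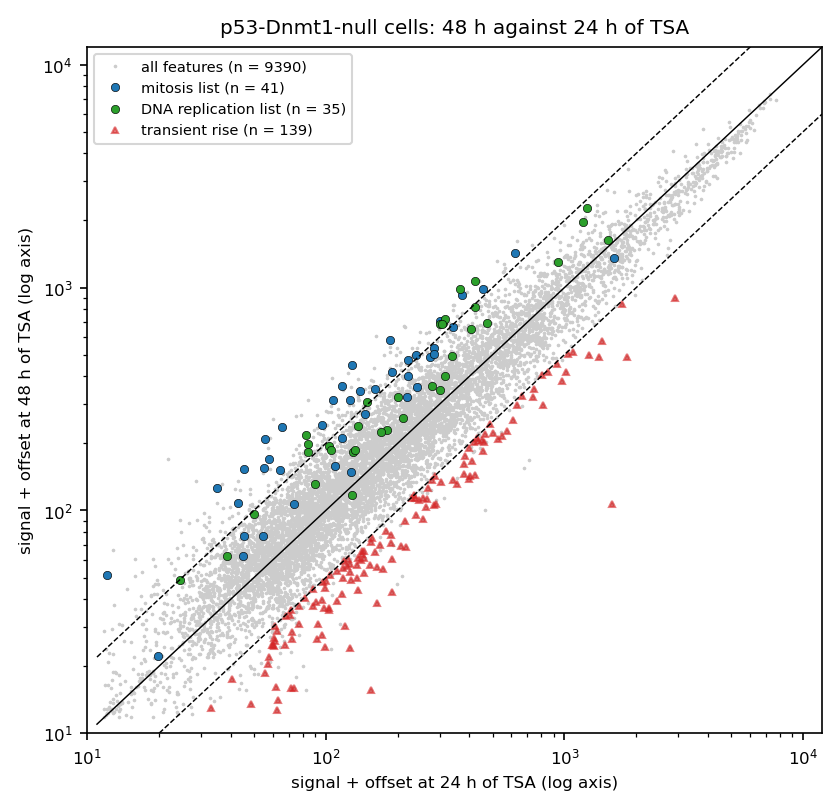
Signal plus offset at 48 h against 24 h of TSA in p53-Dnmt1-null cells, both on log axes; grey points are the 9390 features, blue the 41 mitosis genes, green the 35 DNA replication genes, red triangles the 139 transient rises, the solid line equality and the dashed lines 2-fold. All but 2 of the 76 mitosis and replication genes lie above equality.

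Together the 2 lists held 76 measured genes, of which 34 were at least 2-fold higher at 48 h (3.14% of all features) and 74 above 0. They supplied 33 of the 161 named genes with a transient fall, which is 20.5% of that class and 43.4% of the lists. In p53-null cells 67 of the 76 were lower at 48 h than at 24 h, where 52.7% of all features were higher. The mitosis median there was -0.63 from 24 h to 48 h, with 0 genes 2-fold higher (1.62% of all features) and 3 lower (2.17%), after -0.59 from untreated to 24 h. The replication median was -0.31, after -0.94. Kif11, for example, read 53.2, 35.0 and 25.6 on the p53-null arrays at 0, 24 and 48 h, and Fen1 read 396.3, 235.6 and 135.0, lower at each time. Sgo1 read 73.1, 72.2 and 12.7 there.

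At 2 weeks after TSA removal the mitosis genes of p53-Dnmt1-null cells had a median of 0.44 against untreated, with 33 of 41 above it. The replication genes had a median of -0.07, with 16 of 35 above it. The median over all features was -0.13. Mki67 read 679.8 on that array, above every other array of the genotype, and Fen1 read 1285.3, near its untreated level.

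**Figure D3:**
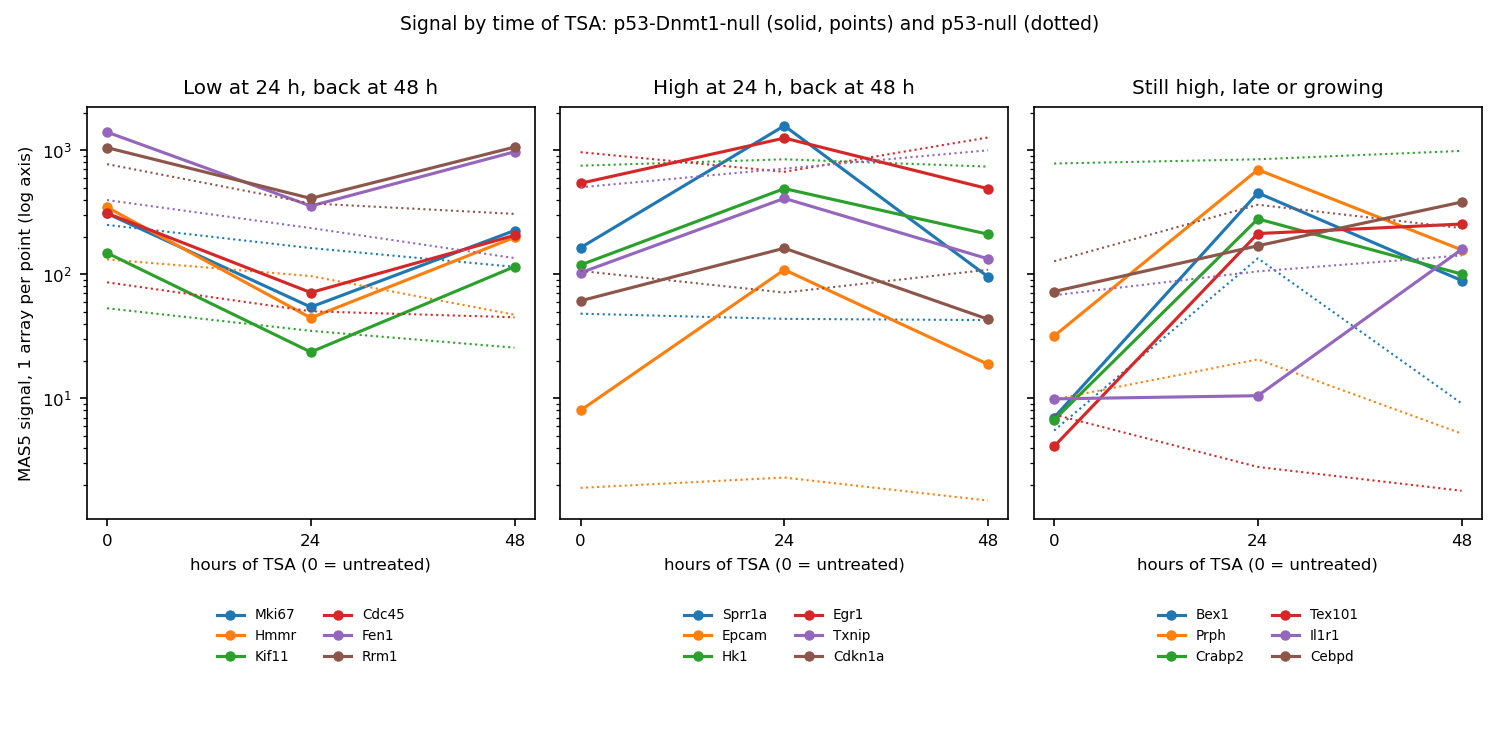
MAS5 signal (log axis, 1 array per point) at 0, 24 and 48 h of TSA for genes low at 24 h (left), high at 24 h (middle) and still high, late or growing (right); solid lines with points are p53-Dnmt1-null cells and dotted lines p53-null cells. Kif11 goes from 148.5 to 23.6 and back to 115.1 in p53-Dnmt1-null cells and from 53.2 to 25.6 without a return in p53-null cells.

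Some chromatin and sterol genes were also among the transient falls. In the chromatin list, 4 of 33 measured genes were 2-fold higher at 48 h (3.14% of all features) and 1, Sirt3, was lower (2.5%). Hells, a helicase that DNA methylation depends on, read 221.4 untreated, 47.2 at 24 h and 142.0 at 48 h. Ezh2, the histone H3 lysine methyltransferase of Polycomb, read 356.3, 157.9 and 352.7, and Cbx5, heterochromatin protein HP1 alpha, read 975.8, 341.9 and 735.3. These 3 genes were lowest on the 24 h array of the 3, while Kat2b, a histone acetyltransferase, read 220.4, 196.0 and 447.8 and was highest at 48 h.

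Cholesterol synthesis genes leaned up between 24 h and 48 h. The median of the 18 measured was 0.41, 15 were above 0, and 2 were 2-fold higher (3.14% of all features). Idi1, the isopentenyl diphosphate isomerase, read 340.5 untreated, 112.1 at 24 h and 401.3 at 48 h, and Stard4, a sterol carrier, read 373.2, 156.8 and 331.7. Both were low at 24 h and back at 48 h. Hmgcs1, the synthase at the head of the pathway, read 1319.1, 747.4 and 1307.4, short of 2-fold in each step. In p53-null cells the list's median was -0.45, with 16 of 18 below 0.

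Ptbp2, a regulator of neuronal splicing, read 377.8, 73.1 and 300.3. Dnaja1, an HSP40 co-chaperone, read 893.9, 330.5 and 784.8. Lox, which crosslinks collagen, read 605.7, 259.5 and 620.9, and Nupr1, a stress-induced nuclear protein, 161.3, 61.6 and 151.2. Each of the 4 was low on the 24 h array and close to its untreated level at 48 h.

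The transient rise was largest in Sprr1a, Dcxr and Esx1 among genes with a signal of at least 100. Sprr1a, a precursor of the cornified envelope of skin, read 163.7 untreated, 1573.0 at 24 h and 95.3 at 48 h, a fall of 14.85-fold and the largest of the comparison. It read between 42.7 and 48.1 on the p53-null arrays. Dcxr, a reductase of dicarbonyls and xylulose, read 3.4, 143.8 and 4.3, and 144.9, 208.1 and 90.0 in p53-null cells. Epcam, an adhesion molecule of epithelia, read 8.0, 108.7 and 18.8, and stayed at 2.3 or under in p53-null cells. In p53-Dnmt1-null cells each of the 3 was higher on the 24 h array than on the untreated and 48 h arrays.

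Esx1, a homeobox gene of the placenta, read 6.7, 114.9 and 12.8. Ramp3, a partner of calcitonin-type receptors, read 30.3, 177.4 and 31.8, and Hebp1, a haem-binding protein, read 26.2, 152.2 and 27.2. The last pair were back at the untreated level at 48 h, from which they differed by 0.05 and 0.04 on the log2 scale.

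Cdkn1a rose to 162.2 at 24 h from 61.1 untreated and fell 3.17-fold to 43.4 at 48 h. It read 106.4, 71.2 and 108.7 in p53-null cells, with no 2-fold step. The paralog Cdkn1c (p57), an imprinted gene, read 7.9, 61.1 and 17.0, but 167.6, 199.7 and 674.8 in p53-null cells, highest at 48 h. Of the 18 measured CDK inhibitors and G1 cyclins, Cdkn1a and Cdkn1c were the 2 that were 2-fold lower at 48 h (2.5% of all features). Rbl1, the pocket protein p107, was the 1 that was higher (3.14%), at 99.1, 40.5 and 93.1. Cdkn2a and Cdkn2b, both INK4 locus genes, read 365.3 and 422.9 at 24 h and 330.4 and 520.1 at 48 h, so they did not follow Cdkn1a down.

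Some other genes known to be induced by histone deacetylase (HDAC) inhibitors also fell at 48 h. Of 27 measured in that list, Cdkn1a included, 4 were 2-fold lower at 48 h, against 2.5% of all features. In all, 21 were below 0 and the median was -0.39. Txnip, a thioredoxin-binding arrestin, read 102.8, 408.9 and 133.1, and Tubb3, a neuronal beta-tubulin, 68.6, 149.0 and 53.7. Of the untreated, 24 h and 48 h arrays the 24 h array was the high one for both; after TSA removal they read 217.9 and 144.3. Stmn2, a neuronal regulator of microtubules, read 13.8, 134.1 and 49.8, still 2-fold over untreated, while another probe set of the gene read 25.4, 131.4 and 22.8. Of 12 measured genes known to be repressed by such inhibitors, 4 were 2-fold higher at 48 h (3.14% of all features). They were Ezh2, Foxm1, Ccna2 and Brca1, all of them also genes of dividing cells.

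Of 25 measured neuronal genes, 7 were 2-fold lower at 48 h (2.5% of all features) and 1 higher (3.14%), with a median of -0.36. Gap43, of the axonal growth cone, read 4.7 untreated, 56.4 at 24 h and 13.4 at 48 h, and Stmn3, a relative of Stmn2, read 22.4, 84.8 and 16.1. Both were high at 24 h. Gpm6a, a neuronal membrane glycoprotein that is also in the mesothelial list, was the 1 that was higher, at 1003.0, 549.3 and 1268.3. In p53-null cells 5 of the 25 were 2-fold lower at 48 h (2.17% of all features) and 20 were below 0.

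Immediate early genes were lower at 48 h in 23 of 29 measured, 3 of them by 2-fold (2.5% of all features), with a median of -0.37. Egr1, a serum-responsive zinc finger factor, read 540.9, 1251.4 and 488.9, and Junb, an AP-1 subunit, 157.5, 372.8 and 164.1. Ier2 read 459.8, 575.7 and 270.9 and so ended below its untreated level without a 2-fold rise at 24 h. In p53-null cells the list's median was -0.01, and Egr1 read 963.1, 669.1 and 1265.4.

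Retinoid and glutathione genes had 6 of 24 members 2-fold lower at 48 h (2.5% of all features), and a median of -0.45. Crabp1, a retinoic acid binding protein, read 2.1, 37.4 and 2.2, and Gpx3, a secreted glutathione peroxidase, 13.8, 91.5 and 24.3. Both had returned, while Crabp2 and Gstt1 had not. Glycolysis genes had 3 of 25 lower by 2-fold (2.5% of all features), with a median of -0.36. Hk1, hexokinase 1, read 118.8, 490.1 and 210.2, and Pfkp, a phosphofructokinase, read 100.3, 271.4 and 94.1. In p53-null cells the glycolysis median was -0.35.

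Of the imprinted genes, 18 were measured, of which 3 were 2-fold lower at 48 h (2.5% of all features) and 2 higher (3.14%). Phlda2, a growth-restraining gene of the placenta, read 5.2, 51.5 and 2.7. Mcts2 read 191.7, 441.8 and 196.3, but it is a retrocopy of Mcts1, so its signal is uncertain. Impact, a regulator of translation, read 195.0, 80.7 and 256.4, and Peg3, a zinc finger gene, read 958.5, 508.3 and 1299.9, so both were low at 24 h.

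**Figure D4:**
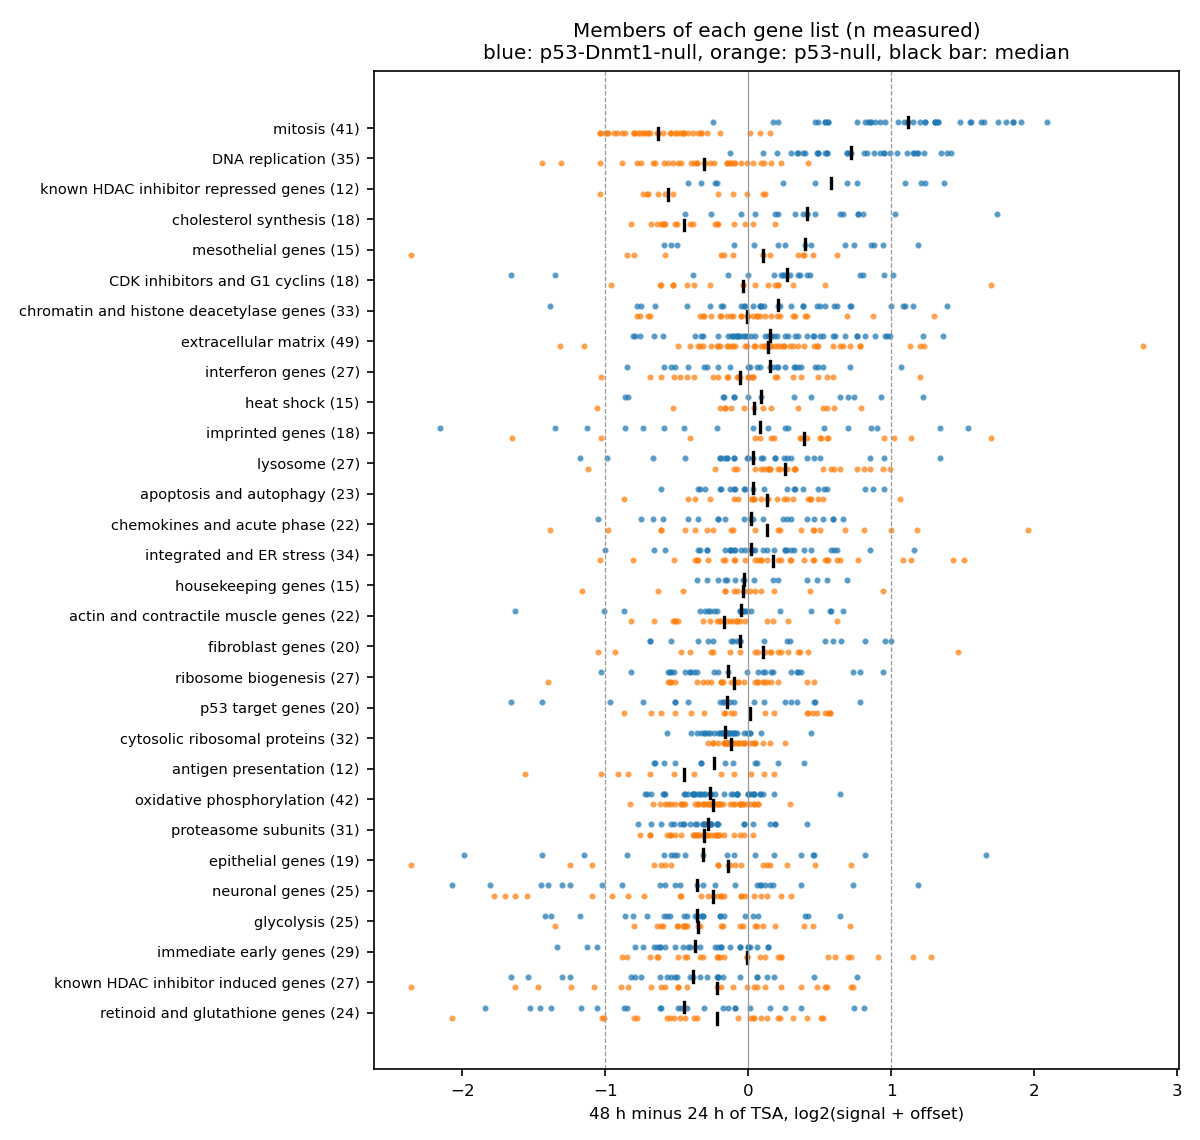
Difference between 48 h and 24 h of TSA, as log2(signal + offset), of each measured member of the gene lists with at least 10 measured members, in p53-Dnmt1-null cells (blue) and p53-null cells (orange), with medians as black bars and dashed lines at 2-fold. Mitosis stands at the top at 1.12 and -0.63, and retinoid and glutathione genes at the bottom at -0.45 and -0.22.

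On the p53-null arrays, which the classes were not chosen on, the members of the transient rise took a like course in smaller steps. Of the 139, 111 were above untreated at 24 h (51.2% of all features) and 20 passed 2-fold (3.38%). From 24 h to 48 h 23 were 2-fold lower (2.17% of all features), 3 higher, and 30 above 0 (52.7%). Their medians were 0.42 and -0.41 for these steps, which share the p53-null 24 h array. In all, 10 features were transient rises in both genotypes. Among them Chchd10, a mitochondrial protein, read 469.3, 961.3 and 368.6 with the Dnmt1 deletion and 56.3, 424.2 and 56.1 without it, and Bdh1, a ketone body dehydrogenase, read 136.5, 343.9 and 120.0 and 4.1, 58.7 and 2.8. Gap43 and Esx1 were also among the 10.

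As a set, members of the transient fall had only a small fall at 24 h in p53-null cells and no return at 48 h. Of the 179, 66 were above untreated at 24 h there (51.2% of all features) and 20 were 2-fold lower (1.85%). Their median for that step was -0.21, against 0.01 over all features. From 24 h to 48 h 2 were 2-fold higher (1.62% of all features) and 7 lower (2.17%), and the median was -0.04, against 0.02 over all features. A single feature, Farp2, was a transient fall in both genotypes, reading 28.4, 5.6 and 41.4 with the Dnmt1 deletion and 39.1, 6.7 and 50.0 without it.

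Some of the strongest inductions at 24 h were only partly lost by 48 h. Bex1, a small brain-expressed adaptor, read 7.0 untreated, 452.5 at 24 h and 89.0 at 48 h. Blvrb, biliverdin reductase B, read 26.0, 668.7 and 143.5, and Prph, the intermediate filament peripherin, 31.8, 695.7 and 157.2. Each had dropped over 4-fold from 24 h and was still over 3-fold above untreated. Crabp2, the other retinoic acid binding protein, read 6.7, 279.3 and 100.3.

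Gstt1, a glutathione transferase, read 43.0, 301.4 and 102.4, and Cldn6, a tight junction protein of early epithelia, 19.8, 158.1 and 65.0. Lce1h, a cornified envelope gene, read 9.9, 198.0 and 39.6. All were highest at 24 h and lowest untreated. In p53-null cells Bex1 read 5.5, 134.4 and 9.1, back within 2-fold of untreated at 48 h, and all but 1 of the 20 features of this class were lower at 48 h than at 24 h, 7 of them by 2-fold. On the array after removal, 18 of the 20 were within 2-fold of untreated, where 85.7% of all features were, with Bex1 at 13.5. The other pair, Crabp2 at 26.6 and Lce1h at 35.3, were over 2-fold above it.

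Changes that grew by at least 2-fold in each step were 2 rises and 1 fall. With 1.5-fold as the rule for each step there were 17 rises and 6 falls. Aldh1a1 rose 3.2-fold and then 1.75-fold, so it is counted among the rises that held. Cebpd, a C/EBP transcription factor of the acute phase and of growth arrest, read 72.6 untreated, 169.7 at 24 h and 381.6 at 48 h. It had risen 2.16-fold in the first step and 2.17-fold in the second. Another probe set of the gene read 29.3, 43.0 and 95.5, in the same direction but short of 2-fold in both steps. In p53-null cells Cebpd read 127.2, 363.1 and 235.5, highest at 24 h, and after TSA removal it read 215.6. S1pr5, a sphingosine phosphate receptor, read 3.7, 21.1 and 77.5, and Arhgap27 fell from 72.2 through 29.5 to 9.0, near the bottom of the scale. Cyp1a1, the cytochrome P450 of the aryl hydrocarbon receptor response, was the 1 feature (0.0106%) that overshot, at 23.9, 71.4 and 4.3.

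Late rises, under 2-fold from untreated at 24 h and at least 2-fold above both untreated and 24 h at 48 h, numbered 23. Il1r1, the receptor of interleukin 1, read 9.9 untreated, 10.5 at 24 h and 158.4 at 48 h, the largest rise of the comparison at 7.75-fold. Krt7, a keratin of simple epithelia and mesothelium, read 299.0, 201.1 and 659.7. Neo1, the netrin receptor neogenin, read 115.7, 95.3 and 379.5. In these 3 genes the 48 h array was the high one.

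Rspo1, a secreted enhancer of Wnt signalling, read 147.2, 174.0 and 529.4, and Rhbdl3, a rhomboid-family protein, 59.3, 48.9 and 245.6. Csdc2, an RNA-binding cold shock domain protein, read 204.1, 174.1 and 503.1. After TSA removal 16 of the 23 were within 2-fold of untreated, where 85.7% of all features were, 5 were lower, among them Krt7, Rspo1 and Csdc2 at 24.9, 45.8 and 52.0, and 2 were higher, among them Il1r1 at 58.3. In p53-null cells 12 of the 23 were above 0 between 24 h and 48 h, and their median was 0.02. Of the 22 late falls 3 had a signal of at least 100 on the untreated, 24 h or 48 h array. Eef1a2, a muscle and nerve form of elongation factor 1 alpha, read 77.1, 103.6 and 19.6, Ngef 110.4, 111.6 and 47.2, and Rrp9, of pre-rRNA processing, 219.1, 193.3 and 89.1.

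A further 89 features (0.948%) were higher and 52 (0.554%) lower at 48 h than at 24 h without being 2-fold from untreated at either time. Among the higher ones, Dcn, the collagen-binding proteoglycan decorin, read 1097.9, 621.2 and 1611.5, and H2ax, the histone variant of DNA damage signalling, 618.6, 329.7 and 821.1. Both dipped at 24 h and ended above untreated. Dcn rose at each time in p53-null cells, from 73.8 to 234.2 and 551.8. Among the lower ones, Tnfrsf21, a death receptor, read 114.7, 193.8 and 74.9, Cd248, the stromal antigen endosialin, 210.5, 401.5 and 170.9, and Acaa2, a thiolase of fatty acid oxidation, 221.1, 405.7 and 173.2, all highest at 24 h.

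Rises that held numbered 154 (1.64% of all features), against the 139 that passed. They were 2-fold above untreated at both times and less than 2-fold apart between them, and 29 features (0.309%) were 2-fold below at both. Tex101, a germ cell surface protein, read 4.1, 212.8 and 253.8, and 4.8 after removal. Aldh1a1, a retinaldehyde dehydrogenase, read 139.9, 473.3 and 836.7, and Thy1, a fibroblast surface antigen, 346.2, 1209.0 and 827.8. Des, the muscle filament desmin, read 127.3, 557.9 and 299.9. Each of these 4 was above untreated at both times. Of the falls that held, Hp, haptoglobin, read 481.3, 110.7 and 151.3, and Tmpo, a nuclear lamina protein, 619.5, 139.1 and 266.3.

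Several large lists moved little, with few 2-fold calls or none, where 3.14% of all features were higher and 2.5% lower. Genes of oxidative phosphorylation, the proteasome and the cytosolic ribosome had no 2-fold call. The 42 oxidative phosphorylation genes had a median of -0.27 with 32 below 0, the 31 proteasome subunits -0.28 with 26 below 0, and the 32 cytosolic ribosomal proteins -0.16 with 28 below 0. In p53-null cells these medians were -0.25, -0.31 and -0.12. Apoptosis and autophagy genes had a median of 0.03 and 0 of 23 called. The 34 integrated and ER stress genes had a median of 0.02 with 1 call, Nupr1, and the p53 target genes, in cells without p53, -0.15 with 2 of 20 lower, Cdkn1a and Perp. Of the 49 extracellular matrix genes 2 were higher, Dcn and Lox, and the median was 0.15. The 27 interferon genes had a median of 0.15 with Oasl2 alone higher, at 60.7, 64.9 and 149.3, and the 12 antigen presentation genes -0.24 with 0 called.

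Markers of cell types were read beside these results. Of 20 fibroblast genes, all were measured and 0 passed 2-fold between 24 h and 48 h. Vim, vimentin, read 5044.9, 5732.6 and 4499.1, and Col1a1, of type I collagen, 1371.7, 1379.1 and 2080.1. The mesothelial markers Upk3b and Wt1 read 4130.1, 3786.7 and 5141.3 and 526.7, 542.3 and 650.4, and Krt8 and Krt18, keratins of simple epithelia, read 2081.3, 3313.1 and 2200.1 and 2916.7, 4359.4 and 3078.9, so the cells carried markers that fibroblasts usually lack. The summed signal of the 19 measured epithelial genes was 11119.1 untreated, 16299.1 at 24 h and 13120.6 at 48 h. Krt8, Krt18 and Krt19 (2079.0, 3487.2 and 2390.6) make up most of this sum. They had no 2-fold step and are in the mesothelial list too. Of the 19, 4 were below untreated at 24 h (52.3% of all features) and 7 were higher at 48 h than at 24 h (52.6%). At 48 h 3 of the 19 were 2-fold lower (Epcam, Perp and Cldn6), against 2.5% of all features, and 1 higher (Krt7), against 3.14%. The summed signal of the 15 mesothelial genes was 19823.4, 22018.2 and 23811.9. On the untreated p53-null array the sums were 1098.6 for epithelial and 438.7 for mesothelial genes. The fibroblast sum was 27920.8 there and 10271.7 on the untreated p53-Dnmt1-null array, so the genotypes differed in these markers before TSA. The part of these cell types in the results, and in the differences between the genotypes, was not tested.

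Of 18 macrophage genes 13 did not pass the filter of a signal over 45.6 on any array, among them Ptprc and Itgam, and neither did 9 of 12 endothelial genes, among them Pecam1 and Cdh5. The summed signal of the 5 measured macrophage genes was 389.3, 476.7 and 445.0.

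The same RNA was also read by other probe sets of the called genes. For 114 genes that were 2-fold higher, 188 other probe sets had a signal over 45.6 on at least 1 array, and 172 of them (91.5%) were also higher at 48 h, 46 by 2-fold. For 39 genes that were lower, 52 of 55 (94.5%) were lower and 20 passed 2-fold. The other probe sets of Hmmr rose from 37.3 to 95.2, from 15.1 to 63.2 and from 6.6 to 54.8, and that of Txnip fell from 239.0 to 85.3. When all probe sets of a gene were averaged, dim ones included, 13 of the 97 named genes at 2-fold or more after rounding fell under it. Among them were Cdkn1a at -0.97 on the log2 scale, Prph at -0.65, Tnfrsf21 at -0.88, Spc25 at 0.89, Cbx5 at 0.46, Nasp at 0.78, Rbl1 at 0.80, Lox at 0.83, Dnaja1 at 0.99 and Nupr1 at 0.98. All probe sets read the same hybridisations, so they bear on the probes and not on the cultures.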

How the data were processed

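MAS5 is named in the submitters' processing notes, without a version, and the values the authors deposited are linear signal intensities of 22690 probe sets on each of 7 arrays. Their 2% trimmed mean was 150.1 on every array, so they were kept as deposited. Here 64 control probe sets were left out and probe sets were named through the array's annotation: 20393 had 1 symbol, 691 several (not named) and 1606 were unlisted, and 20364 symbols were updated through RefSeq. A gene was taken by its probe set of highest mean log2 signal. Differences were computed on log2(signal + 11.4), the pooled 25th percentile, over the 9390 features (8298 named genes) whose probe set so taken had a signal over 45.6, the pooled median, on at least 1 array, with pandas 2.3.3 in Python 3.11.15. Lists are described by counts and medians beside those of all features. The course classes were tested on simulated data, with steps above 2-fold planted in bright genes. That test does not bear on dim genes, on calls near 2-fold or on an error of the 24 h array. The number of arrays limits the precision. The members and the 37 lists were chosen with earlier results of these data known. Named genes are the 6 of each course class with the largest difference between 48 h and 24 h and a signal of at least 100 on the untreated, 24 h or 48 h array, and up to 4 members of each list in each direction, with Dnmt1 and the controls. Genes printed outside that rule were chosen after their values were seen: Top2a, Mcm5, Mcm6, Chchd10, Bdh1, Farp2, S1pr5, Arhgap27, Cyp1a1, Cdkn2b, Col1a1, Upk3b, Wt1, the threshold genes and those of the other observations. Promoters came from the RefSeq table, the first listed for each symbol.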

Additional observations from a re-analysis of the deposited data

Results flagged for a closer look

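The following values stood out because the genotypes moved in opposite directions between 24 h and 48 h of TSA; with 1 array per group the difference was not tested. The median difference on the log2 scale was 1.12 for mitosis genes in p53-Dnmt1-null cells and -0.63 in p53-null cells. It was 0.72 and -0.31 for DNA replication genes, and 0.41 and -0.45 for cholesterol synthesis genes. Sgo1 differed by 2.25 in p53-Dnmt1-null cells and by -1.79 in p53-null cells.

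The ribosomal RNA controls, which enter no comparison, read higher at 24 h in p53-Dnmt1-null cells than on any other array. The 3 probe sets for 18S read 2549.1 (3' end), 2039.0 (5' end) and 358.2 (middle) on that array.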

How the results depend on the processing

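No paired analysis was possible because each group had 1 array and the labels give no replicate numbers, so leaving out a replicate could not be done either. Counts depended on the offset and the threshold; list medians kept their direction in 257 comparisons with an alternative and reversed in 2. The reversals were adipocyte genes (0.01 with the filter on the mean of the 3 arrays, against -0.26) and liver genes (-0.08 with no filter, against 0.28), over 8 and 4 measured genes. The mitosis median lay between 0.96 and 1.17 and the replication median between 0.63 and 0.86 over the settings. Among named genes, 40 values of 28 genes moved by over 1.5 times and 0 reversed: 19 with the larger offset, 12 with an offset of 1 and 9 with the mean of all probe sets. Of 97 named genes at 2-fold or more after rounding, 32 fell under it with the larger offset (Ncapg at 0.89, Crabp1 at -0.80 and Gap43 at -0.79 among them). The mean of all probe sets put 13 under it, and quantile normalization and the running median 5 each. The 97 include Twist1 and Ddit3, which reach 2-fold only by rounding and are not called elsewhere. Both are among the 32, and Twist1 is among each of the 5. Dim genes limit the rest: with the larger offset, 45.6, few late or growing changes passed. A larger offset and a higher threshold pass fewer features by construction; the cause of the other changes was not tested.

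With the offset of 45.6, 119 features were higher and 83 lower at 48 h than at 24 h; transient rises numbered 56 and falls 78, partial returns 6 from a rise and 0 from a fall, overshoots after a rise 0, growing rises 0 and falls 0, late rises 8 and falls 1, in between 33 higher and 20 lower, sustained rises 60 and falls 9. With an offset of 1, 471 were higher and 374 lower, with 291 transient falls, partial returns of 43 from a rise and 7 from a fall, overshoots of 4 after a rise and 4 after a fall, 2 growing falls, 49 late rises, 60 late falls, 238 sustained rises and 61 sustained falls. At a threshold of 1.5-fold, 1225 were higher and 894 lower, with 466 transient rises, 687 transient falls, partial returns of 97 and 65, overshoots of 7 and 8, growing rises of 17 and falls of 6, late rises of 174 and falls of 115, in between 274 higher and 203 lower, and sustained rises of 434 and falls of 245. At 3-fold, 35 were higher and 33 lower, with 19 transient rises and 19 falls, partial returns of 3 and 0, overshoots of 0, growing rises of 0 and falls of 0, late rises of 4 and falls of 2, in between 12 higher and 9 lower, and sustained rises of 36 and falls of 5. At that threshold 8 mitosis genes and 0 replication genes were higher.

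With the filter on the mean of the 3 arrays, 143 features were lower, and there were 0 overshoots, 1 growing rise, 0 growing falls, 15 late rises, 7 late falls and 27 in between and lower. With no filter there were 35 late rises, 47 late falls, 95 in between and lower and 58 sustained falls. Centring on a running median gave 1 partial return from a fall and 58 in between and higher, the mean of all probe sets gave 1 partial return from a fall and 1 growing rise, and quantile normalization gave 82 in between and lower.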

Other observations

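Among the transient falls were 5 genes of RNA processing that no list covered. They were chosen after their values were seen, and other RNA-processing genes were not counted, so the values describe these 5 alone. Hnrnph1, a heterogeneous nuclear ribonucleoprotein, read 577.3 untreated, 203.4 at 24 h and 656.3 at 48 h. Hnrnpm, of the same family, read 329.5, 125.5 and 319.6. Dhx9, an RNA helicase, read 334.3, 125.1 and 375.5. Sf3b1, a subunit of the U2 snRNP, read 897.6, 359.6 and 757.0, and Rbm39, a splicing cofactor, read 152.3, 57.1 and 134.4. All 5 were lowest on the 24 h array. In p53-null cells they read 392.7, 152.4, 253.1, 523.1 and 126.6 at 24 h and 466.9, 220.6, 203.1, 693.4 and 174.2 at 48 h, without a 2-fold step between these times. After TSA removal Hnrnph1 and Rbm39 read 1465.1 and 486.7, above their untreated levels by over 2-fold.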
